A study of Mus musculus with 36 samples.

Results

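The 9 genes described here belong to the ADAMTS (a disintegrin and metalloproteinase with thrombospondin motifs) family, as aggrecanases or their relatives, and were followed through the response of a mouse chondrocyte line to interleukin-1β (IL-1β) with and without depletion of the intraflagellar transport protein IFT88. The genes were *Adamts1*, *Adamts4*, *Adamts5*, *Adamts7*, *Adamts9*, *Adamts12*, *Adamts15*, *Adamtsl1* and *Adamtsl4*, taken by gene symbol. All 9 were found among the 53421 genes of the count table and the 52416 genes of the TPM table. The cells were wild-type mouse chondrocytes of a fibroblast-like line. They received either a pool of non-targeting siRNAs (NT) or a pool of siRNAs to *Ift88* (IFT88siRNA). The labels give 50 nM of siRNA, and the methods a lower concentration. Poly(A) RNA was sequenced from cells in medium only (0 h) and from cells that had been given IL-1β at 10 ng/ml 1, 2, 4, 8 or 24 h earlier, as 3 replicates of each of the 12 conditions (36 libraries). Every library thus came from 1 transfected cell line, and the NT cells were transfected as well. The labels do not state whether the replicates were separate cultures, so p-values measure only the spread between these libraries, which may be technical.

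Aggrecanases are secreted metalloproteinases that cut the core protein of aggrecan, the large proteoglycan that gives cartilage its resistance to compression. They are made as inactive precursors, processed by furin-type convertases, held in check by tissue inhibitors of metalloproteinases, above all TIMP3, and removed from the matrix through the endocytic receptor LRP1. ADAMTS4 and ADAMTS5 are the main aggrecanases of cartilage, and IL-1β is a classical inducer of aggrecan loss. ADAMTS1, ADAMTS9 and ADAMTS15 cut aggrecan or versican as well, ADAMTS7 and ADAMTS12 act on cartilage oligomeric matrix protein (COMP), and the ADAMTS-like proteins ADAMTSL1 and ADAMTSL4 resemble the ancillary domains but carry no protease domain.

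The genes lie on 7 chromosomes (GRCm38). *Adamts1* (chr16:85793827-85803113) and *Adamts5* (chr16:85856173-85901828) are neighbours on the minus strand, 53059 bases apart, with 1 non-coding gene between them. *Adamts4* lies at chr1:171250421-171260637 on the plus strand, *Adamts7* at chr9:90163069-90208071 on the plus strand, *Adamts9* at chr6:92772699-92943492 on the minus strand and *Adamts12* at chr15:11064790-11349231 on the plus strand. *Adamts15* lies at chr9:30899155-30922452 on the minus strand, *Adamtsl1* at chr4:85514172-86428385 on the plus strand and *Adamtsl4* at chr3:95676201-95687917 on the minus strand. Reads were counted without regard to strand, so genes that share exonic bases on opposite strands cannot be separated there, and by the counter's defaults a read over both is assigned to neither. *Adamts9* shares 1381 exonic bases with A730049H05Rik and 424 with Gm15737, which held at most 2 counts and 1 count in any library. *Adamts7* shares 122 with *Tbc1d2b*, which stood at 88.4 ± 2.7 CPM, counts scaled to library size, in NT at 0 h (SD, n = 3) and so well above *Adamts7* itself.

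RefSeq promoter sequences (GRCm38.p6) were at hand for 4 of the 9 genes, *Adamts1*, *Adamts9*, *Adamts12* and *Adamtsl4*. Those of *Adamts1* and *Adamts9*, the proteases with the strongest early rise, are shown here as the 250 bases before the start site, chr16:85803114-85803363 and chr6:92943535-92943784, both on the minus strand. Capitals mark the motif matches found.
Adamts1: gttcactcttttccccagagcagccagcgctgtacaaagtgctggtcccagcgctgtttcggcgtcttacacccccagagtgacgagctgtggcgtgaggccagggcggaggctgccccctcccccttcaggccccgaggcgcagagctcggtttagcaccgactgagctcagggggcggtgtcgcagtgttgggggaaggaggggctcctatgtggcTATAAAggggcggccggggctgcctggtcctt
Adamts9: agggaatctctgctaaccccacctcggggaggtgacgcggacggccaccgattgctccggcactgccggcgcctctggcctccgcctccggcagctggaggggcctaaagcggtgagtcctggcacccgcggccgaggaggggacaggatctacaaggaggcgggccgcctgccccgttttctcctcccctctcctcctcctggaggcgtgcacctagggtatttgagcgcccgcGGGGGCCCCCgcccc
The *Adamts1* sequence holds a TATA box (TATAAA) at −32 to −27 from the start site, a motif found in 13.6% of 32851 promoter windows of 300 bases, which run to 50 bases past the start. The *Adamts9* sequence holds a match to the NF-kB consensus, GGGGGCCCCC at −15 to −6, which reads the same on both strands. That consensus was met in 8.46% of the windows. The *Adamts9* window was 70% G and C, against a median of 52.7% over the windows, and the share was not matched for this. No match was found in the 4 windows to AP-1 (TGAGTCA or TGACTCA, in 5.2% of windows), CRE (TGACGTCA, 1.79%) or the serum response element (1.63%), and *Adamts12* and *Adamtsl4* held none of the 5 motifs. Both strands were searched, and a match describes letters only.

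Each library held from 19337022 to 38304127 counts on genes (median 21672803.5 in NT and 25873754 in IFT88siRNA), so the IFT88siRNA libraries were on the whole sequenced more deeply. At 0 h and 1 h every IFT88siRNA library was deeper than every NT library. The 0 h ranges were 20223532 to 21906468 counts in NT and 25864798 to 26699475 in IFT88siRNA. Whether depth had a part in the 0 h differences was not tested. *Ift88* itself was lower in every IFT88siRNA library than in every NT library of the same time point. It was at 9.16, 8.65 and 9.35 CPM (with TMM scaling) in NT at 0 h against 2.59, 2.88 and 2.82 in IFT88siRNA, a log2 fold change of −1.71 ± 0.11 (SE, adjusted p = 3.26e-10). Of the cell type markers, fibroblast markers summed to 580–1490 TPM (a transcript level per length and depth). Chondrocyte markers summed to 17.8–66.5 TPM in NT and 23.8–60 in IFT88siRNA, with 3 of 7 (*Acan*, *Matn1* and *Col9a1*) under 1 TPM in every library. The aggrecan gene *Acan* averaged 0.0591 TPM, while *Sox9*, the chondrocyte transcription factor, averaged 14.7 TPM and *Col2a1*, the cartilage collagen gene, 3.58. The cells therefore carried the aggrecanase transcripts with next to no transcript of aggrecan itself. Of the macrophage markers 4 of 5 (all but *Cd68*) and of the endothelial markers 3 of 4 (all but *Tek*) were under 1 TPM in every library. Whether the marker levels had a part in any result was not tested.

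Levels are compared between genes in TPM only. In unstimulated NT cells *Adamts1* (34.5 ± 1.14 TPM, SD, n = 3), *Adamtsl4* (33.5 ± 4.08) and *Adamts5* (29.6 ± 2.01) were the most abundant of the 9, and neighbours in this order overlapped. *Adamtsl1* followed at 7.2 ± 0.801 TPM, *Adamts4* at 3.54 ± 0.0799, *Adamts7* at 3.5 ± 0.423, *Adamts9* at 2.31 ± 0.275 and *Adamts12* at 1.54 ± 0.226. *Adamts4* and *Adamts7* could not be separated by their spread. In IFT88siRNA cells at 0 h the order of the leading genes was *Adamts1* (42.2 ± 0.9 TPM), *Adamts5* (40.4 ± 0.234) and *Adamtsl4* (34 ± 1.11). There the mean of *Adamts9* (4.73 ± 0.542) stood above those of *Adamts7* (4.08 ± 0.441) and *Adamts4* (3.64 ± 0.404), with libraries that overlapped those of *Adamts7*.

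*Adamts15*, an aggrecanase of some connective tissues, was practically not detected. It had 0 counts in 19 libraries, 1 count in 13 and 2 counts in 4, that is 21 counts in all 36 libraries. A count of 0 in the shallowest library allows up to 0.155 CPM, for counting error only. The gene passed no low-count filter and enters no test, so the other 8 genes are those tested. Its TPM reached at most 0.0929.

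IL-1β shifted the balance among the genes. After 1 h in NT *Adamts1* stood at 219 ± 7.3 TPM and made up 62% ± 0.2 of the summed TPM of the 9 genes, against 29.9% ± 0.871 at 0 h. *Adamts5* reached 59.1 ± 4.35 TPM at the same time. By 4 h *Adamtsl4* (41 ± 6.24 TPM) and *Adamts1* (37.8 ± 1.69) overlapped at the top, and *Adamts4* had come to 13.3 ± 0.375 TPM, next to *Adamts5* at 16.1 ± 0.273. The ratio of the highest to the lowest of the 12 condition means in CPM was 15.5 for *Adamtsl1*, 9.33 for *Adamts1*, 5.97 for *Adamts9*, 4.59 for *Adamts4*, 3.82 for *Adamts5*, 2.6 for *Adamts12*, 1.89 for *Adamts7* and 1.62 for *Adamtsl4*.

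**Figure D1:**
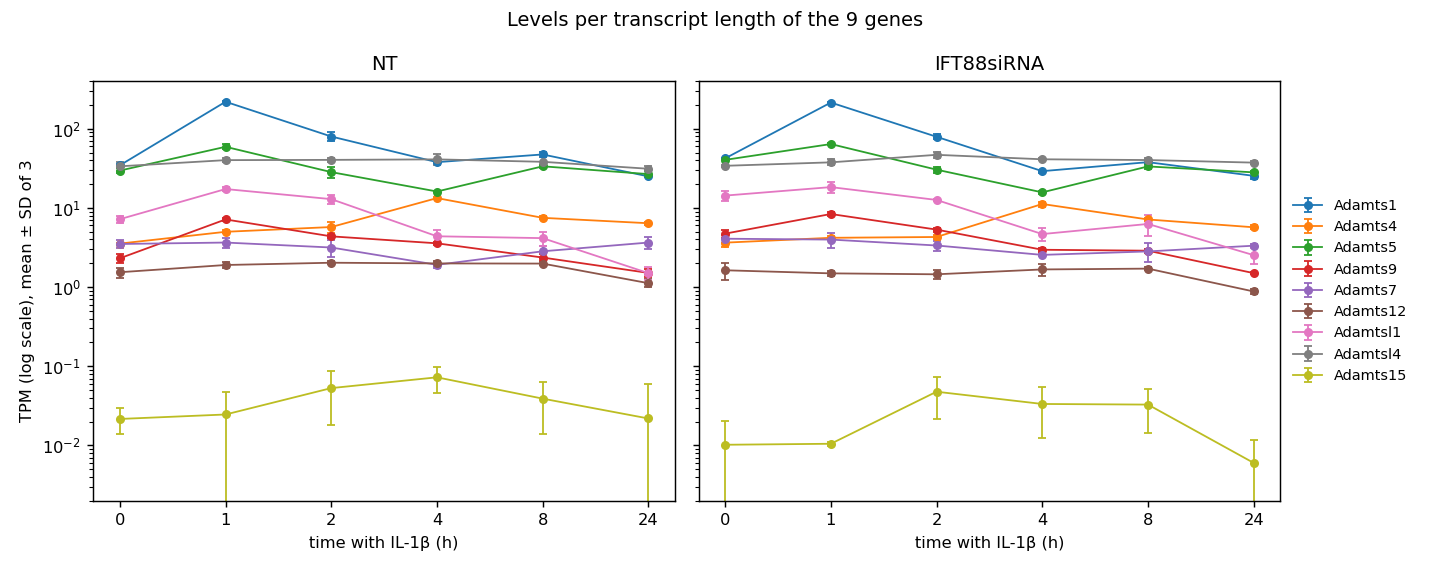
Mean TPM (log axis) with SD of 3 libraries for the 9 genes against time with IL-1β, in NT (left) and IFT88siRNA (right), where bars that would pass the bottom of the axis are clipped. *Adamts1* stands at 219 TPM in NT and 214 TPM in IFT88siRNA at 1 h, and *Adamts15* stays under 0.1 TPM throughout.

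The next comparisons asked which genes IL-1β changed in NT cells. A call needed both an edgeR p-value under 0.05 after adjustment and a fold change over 1.5, and "rose" and "fell" are used for such genes only. All comparisons against 0 h share the 3 NT libraries at 0 h. In bulk RNA, fewer cells with a transcript and less of it per cell cannot be told apart. Over the time course 6 of the 8 tested genes changed (*Adamts1*, *Adamts4*, *Adamts5*, *Adamts9*, *Adamts12* and *Adamtsl1*), where 50.0% of all tested genes did. At 1 h 5 of 8 changed, all upwards, against 18.7% of all tested genes. At 2 h it was again 5 of 8, all upwards, against 27.3%, and at 4 h 5 of 8, with 3 up and 2 down, against 28.7%. At 8 h 2 of 8 changed against 19.7%, and at 24 h 3 of 8 against 16.3%. The median log2 fold change of the 8 genes was 0.917 at 1 h, where that of all tested genes was −0.0088, and −0.22 at 24 h, where that of all tested genes was −0.019.

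*Adamts4*, one of the main aggrecanases, was the late riser. Its CPM in NT was 8.15, 8.03 and 8.51 at 0 h, then 14.5, 13.6 and 12.4 at 1 h and 37.7, 36.6 and 39 at 4 h. The 4 h libraries lay far above all other NT libraries. The rise was 4.62-fold at 4 h (log2 2.21 ± 0.08, SE, adjusted p = 1.88e-17), after 1.64-fold at 1 h and 1.95-fold at 2 h, and *Adamts4* was still up at 24 h (log2 0.97 ± 0.09, adjusted p = 1.41e-09). It was the only one of the 8 genes called up at all 5 time points. In TPM the changes at 1 h (log2 0.40) and 2 h (log2 0.56) were below the fold threshold with a pseudocount of 1. The 1 h change was also below it with a pseudocount of 0.1 (log2 0.48).

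*Adamts5*, the other main aggrecanase, changed early and in both directions. Its CPM in NT was 122, 132 and 118 at 0 h, 272, 288 and 254 at 1 h, and 78.5, 78.7 and 79.4 at 4 h. The 3 groups of libraries did not overlap. *Adamts5* rose 2.18-fold at 1 h (log2 1.12 ± 0.08, SE, adjusted p = 2.82e-11) and fell at 4 h (log2 −0.65 ± 0.08, adjusted p = 3.74e-07), with log2 values of 0.15 at 2 h, 0.23 at 8 h and −0.07 at 24 h that were not called. Thus *Adamts5* was at its lowest in NT when *Adamts4* was at its highest. Across the 12 condition means the log2 CPM of the pair had a Pearson r of −0.646, a description over conditions that share the cell line.

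*Adamts1*, a versican- and aggrecan-cleaving protease, had the largest rise of the 8 genes. Its CPM in NT was 83.3, 89.1 and 81.7 at 0 h and 621, 629 and 586 at 1 h. It then stood at 240 ± 31.3 (SD, n = 3) at 2 h, 111 ± 3.09 at 4 h, 123 ± 4.82 at 8 h and 65.5 ± 2.03 at 24 h, so most of the rise was gone by 4 h. The fold change of *Adamts1* was 7.21 at 1 h (log2 2.85 ± 0.07, SE, adjusted p = 2.48e-21) and 2.82 at 2 h (adjusted p = 5.31e-16), and the values at later times (log2 0.40, 0.54 and −0.37) stayed inside the fold threshold.

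*Adamts9*, which cleaves versican and is best known from development, followed a course like that of *Adamts1* at a lower level. Its CPM in NT was 7.86, 8.94 and 7.76 at 0 h and 26.3, 24.9 and 28.3 at 1 h. At 24 h the 3 NT libraries were at 4.97, 5.2 and 5.25, below all those at 0 h. *Adamts9* rose 3.23-fold at 1 h (log2 1.69 ± 0.08, SE, adjusted p = 2.34e-14), 2.12-fold at 2 h and 1.62-fold at 4 h (log2 0.70 ± 0.09), and fell at 24 h (log2 −0.67 ± 0.10, adjusted p = 6.24e-06). The 4 h call was lost with upper-quartile scaling (log2 0.58), and the 4 h and 24 h calls in TPM with a pseudocount of 1 (log2 0.47 and −0.40), the 24 h call also with the smaller pseudocount (log2 −0.58).

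*Adamts12* and *Adamts7*, the pair that acts on COMP, moved little. *Adamts12* was at 6.29, 8.32 and 6.83 CPM in NT at 0 h and at 11.5, 11.2 and 11 at 2 h, a 1.56-fold rise (log2 0.64 ± 0.11, SE, adjusted p = 1.12e-05), and it was 1.54-fold up at 4 h. Both calls for *Adamts12* sat just over the fold threshold and were lost with upper-quartile scaling (log2 0.54 and 0.50), in TPM (0.26 and 0.24 with a pseudocount of 1) and without replicate 1 (0.55 and 0.47). *Adamts7* was not called at any time point in NT, with a lowest log2 value of −0.49 ± 0.10 at 4 h (adjusted p = 0.000185). It passed the fold threshold there with upper-quartile scaling (log2 −0.62), in TPM (−0.63 with a pseudocount of 1) and without replicate 3 (−0.64).

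Of the ADAMTS-like genes, which encode matrix proteins without protease activity, *Adamtsl1* first rose and then fell furthest of all 8. Its CPM in NT was 20.3, 19.7 and 18.2 at 0 h, 52.5, 47 and 50.4 at 1 h, and 4.41, 2.67 and 3.05 at 24 h. The 3 groups of libraries stood well apart. *Adamtsl1* rose 2.57-fold at 1 h (log2 1.36 ± 0.08, SE, adjusted p = 6.68e-13) and 1.95-fold at 2 h, fell at 4 h (log2 −0.73 ± 0.10) and 8 h (−0.77 ± 0.09), and fell most at 24 h (log2 −2.52 ± 0.11, adjusted p = 1.49e-15). *Adamtsl4*, a microfibril-associated protein gene, ranged only from 60.4 to 87.8 CPM between condition means in NT and was not called, although its log2 value of 0.53 ± 0.04 at 2 h had an adjusted p of 1.35e-10.

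**Figure D2:**
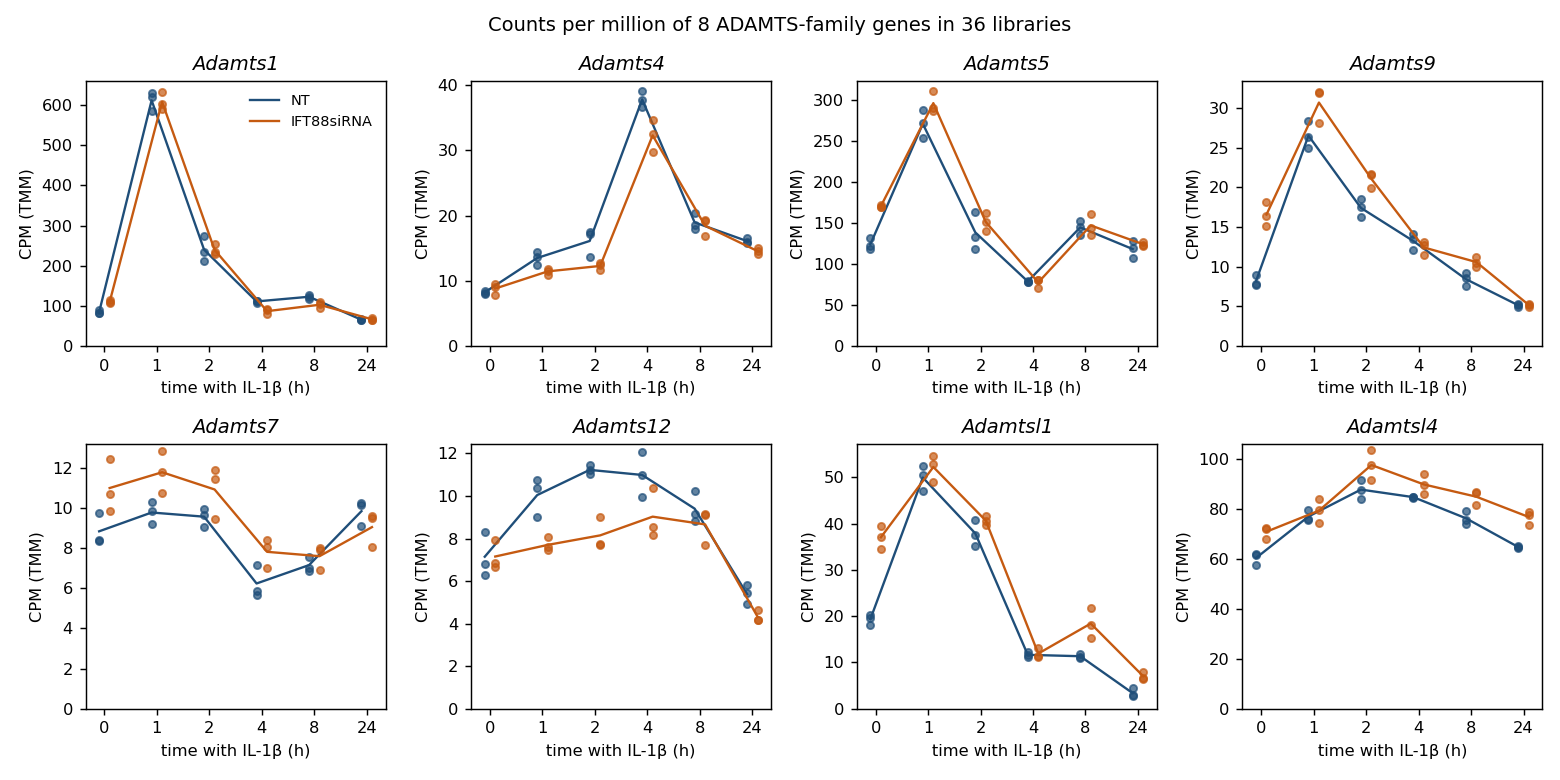
CPM (TMM scaled, linear axes from 0) of the 8 tested genes against time with IL-1β. Each point is 1 library and each line joins the means of 3 libraries, in NT (blue) and IFT88siRNA (orange). *Adamts1*, *Adamts5*, *Adamts9* and *Adamtsl1* peak at 1 h in both siRNA groups, and *Adamts4* peaks at 4 h.

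The siRNA groups were then compared at each time point, 3 libraries against 3. Differences were concentrated at 0 h, before IL-1β. There 2 of the 8 genes were higher in IFT88siRNA, *Adamts9* and *Adamtsl1*, against 2.23% of all tested genes called in either direction. The median log2 fold change of the 8 was 0.343, and that of all tested genes −0.0021. None of the 8 was called at 1 h (2.66% of all tested genes), 2 h (0.496%) or 4 h (0.432%), by edgeR, by DESeq2 or by limma on TPM. The numbers with an unadjusted edgeR p under 0.05 at those times were 5, 4 and 4 of 8. The share of all tested genes at that cutoff was not computed. With an adjusted p under 0.05 and no fold threshold they were 3, 1 and 1, against 19%, 2.76% and 3.85% of all tested genes. At 8 h (0.692%) and 24 h (1.15%) only *Adamtsl1* was called. With all 6 time points tested together, *Adamts9* and *Adamtsl1* were called altered, 2 of 8 against 5.19% of all tested genes.

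*Adamts9* showed the largest difference at 0 h. The 3 IFT88siRNA libraries were at 15.2, 18.2 and 16.4 CPM and the 3 NT libraries at 7.86, 8.94 and 7.76, with no overlap. That was 2.02-fold (log2 1.01 ± 0.09, SE, adjusted p = 2.87e-08), and leaving out any 1 of the 6 libraries gave log2 values from 0.94 to 1.09. The call was lost only in unfiltered TPM (log2 0.79, adjusted p = 0.0765). At later times the log2 difference of *Adamts9* was 0.20 ± 0.07 at 1 h, 0.27 ± 0.08 at 2 h, −0.10 ± 0.09 at 4 h, 0.31 ± 0.10 at 8 h and 0.01 ± 0.10 at 24 h, where the library values of the groups lay side by side (4.97 to 5.25 CPM in NT and 4.99 to 5.33 in IFT88siRNA).

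*Adamtsl1* differed both before IL-1β and late. At 0 h the IFT88siRNA libraries were at 37.1, 39.6 and 34.4 CPM against 20.3, 19.7 and 18.2 in NT, a 1.91-fold difference (log2 0.93 ± 0.06, SE, adjusted p = 1.09e-09). At 1, 2 and 4 h the groups overlapped (log2 0.06, 0.10 and 0.03). At 24 h *Adamtsl1* was at 6.61, 7.99 and 6.53 CPM in IFT88siRNA and at 4.41, 2.67 and 3.05 in NT, the largest difference of the gene (log2 1.07 ± 0.15, adjusted p = 0.000375). At 8 h the IFT88siRNA libraries (18.1, 21.8 and 15.3 CPM) were all above the NT libraries (11.3, 11.8 and 10.9), with a log2 difference of 0.68 ± 0.12 (adjusted p = 0.0104). The 8 h call was lost without NT replicate 1 (adjusted p = 0.0586), without NT replicate 3 (adjusted p = 0.0643) and without IFT88siRNA replicate 2 (log2 0.54, adjusted p = 0.0275). In TPM with a pseudocount of 1 the 8 h and 24 h differences of *Adamtsl1* were 0.48 and 0.49 on the log2 scale and neither was called (adjusted p = 0.326 and 0.222).

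The neighbours *Adamts1* and *Adamts5* had smaller differences at 0 h that stayed under the fold threshold. *Adamts1* was at 109, 114 and 107 CPM in IFT88siRNA against 83.3, 89.1 and 81.7 in NT (log2 0.37 ± 0.05, SE, adjusted p = 3.71e-06). *Adamts5* was at 172, 170 and 169 CPM against 122, 132 and 118 (log2 0.46 ± 0.05, adjusted p = 1.85e-07). In both genes the libraries of the groups did not overlap at 0 h, and did overlap at 1 h. At 4 h *Adamts1* was lower in IFT88siRNA, at 89.1, 92.6 and 79.1 CPM against 113, 113 and 108 (log2 −0.36 ± 0.05, adjusted p = 0.00103), again inside the fold threshold, and at 8 h its log2 value was −0.27 ± 0.06 (adjusted p = 0.029).

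For the remaining genes the differences were small. For *Adamts4* the log2 difference was −0.25 ± 0.08 at 1 h, −0.39 ± 0.10 at 2 h and −0.23 ± 0.07 at 4 h, with adjusted p-values of 0.0487, 0.0684 and 0.0556. At 4 h its libraries were at 29.7, 34.7 and 32.4 CPM in IFT88siRNA and 37.7, 36.6 and 39 in NT, so the peak values did not overlap but differed by under 1.5-fold. For *Adamts12* it was −0.39 ± 0.10 at 1 h and −0.47 ± 0.10 at 2 h, inside the fold threshold, with adjusted p-values of 0.0114 and 0.0306. *Adamts7* and *Adamtsl4* had log2 values from −0.14 to 0.32 and from 0.04 to 0.24 over the 6 time points, none past the fold threshold. For *Adamtsl4* the adjusted p was 0.00119 at 0 h (log2 0.23 ± 0.05) and 0.00326 at 24 h (0.24 ± 0.05), and over 0.05 in between. The 0 h value of *Adamts7* (0.31 ± 0.10, adjusted p = 0.0253) had *Tbc1d2b*, its partner on the other strand, at log2 0.23 (adjusted p = 0.00043) beside it, and the part of the shared bases was not tested.

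**Figure D3:**
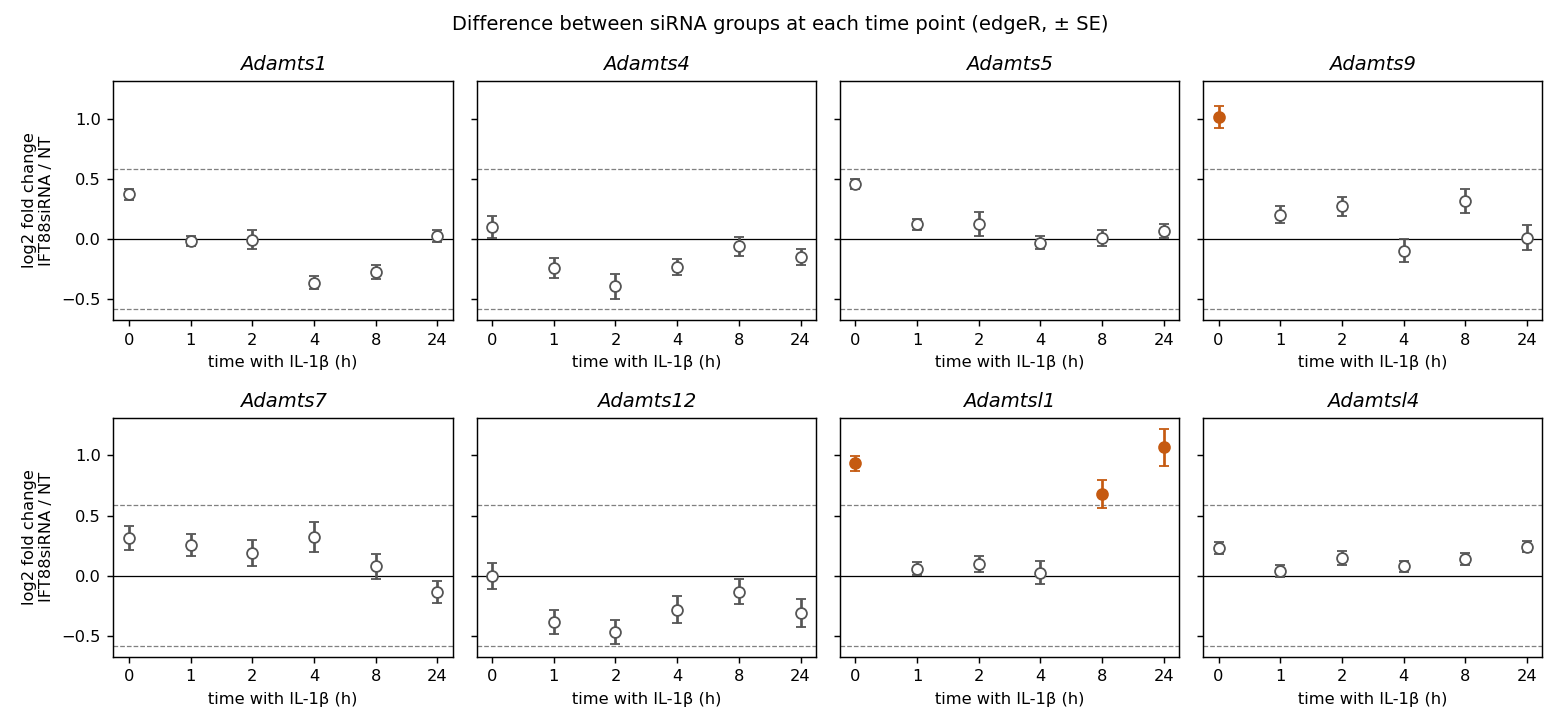
Log2 fold change of IFT88siRNA over NT (edgeR, bars are SE, 3 libraries against 3) at each time point for the 8 tested genes. Filled points passed both thresholds, and dashed lines mark the 1.5-fold threshold. Only *Adamts9* at 0 h and *Adamtsl1* at 0, 8 and 24 h are filled.

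The change from 0 h within IFT88siRNA was computed in the same way, from the 3 IFT88siRNA libraries at 0 h. Of the 8 genes 3 changed at 1 h (15.1% of all tested genes), 1 at 2 h (25.6%), 3 at 4 h (29.3%), 3 at 8 h (17.6%) and 5 at 24 h (14.2%), and 6 over the time course as a whole (48.2%). The counts for NT and IFT88siRNA rest on different libraries, so a gene called in one group alone is not thereby shown to differ. *Adamts1* rose 5.53-fold at 1 h (log2 2.47 ± 0.06, SE) and fell at 24 h (log2 −0.72 ± 0.06). *Adamts4* rose 3.66-fold at 4 h (log2 1.87 ± 0.08) and stayed called at 8 and 24 h, while its log2 values at 1 and 2 h were 0.37 and 0.47. *Adamts5* rose 1.73-fold at 1 h and fell at 4 h (log2 −1.14 ± 0.06). *Adamts9* rose 1.85-fold at 1 h (log2 0.89 ± 0.07), and fell at 8 h (−0.65 ± 0.08) and 24 h (−1.67 ± 0.09). *Adamts12* fell at 24 h (log2 −0.72 ± 0.11), and *Adamtsl1* fell at 4 h (−1.64 ± 0.10), 8 h (−1.01 ± 0.09) and 24 h (−2.38 ± 0.10) without a called rise (log2 0.49 at 1 h).

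Whether the response to IL-1β differed between the siRNA groups was tested directly, as the difference between the 2 changes from 0 h. It differed in 3 of the 8 genes, *Adamts1*, *Adamts9* and *Adamtsl1*, against 1.20% of all tested genes. *Adamts9* was called under all alternatives run, while *Adamtsl1* was not called with limma on TPM (all 3 settings) and *Adamts1* not without replicate 1. At the time points called, the change was less upwards, or more downwards, in IFT88siRNA. All 8 genes had an unadjusted p under 0.05 in the joint test, a cutoff at which the share of all tested genes was not computed. An adjusted p under 0.05 was found for 4, the fourth being *Adamts5*, against 5.53% of all tested genes. By time point 2 of the 8 differed at 1 h (0.598% of all tested genes), 2 at 2 h (0.245%), 3 at 4 h (0.311%), 2 at 8 h (0.275%) and 1 at 24 h (0.132%). Each of these values contains the same 0 h libraries, so they are not independent of one another or of the 0 h differences above.

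*Adamts9* differed at each of the 5 time points, by log2 values of −0.81 ± 0.11 (SE) at 1 h, −0.74 ± 0.12 at 2 h, −1.11 ± 0.12 at 4 h, −0.69 ± 0.12 at 8 h and −1.0 ± 0.13 at 24 h (adjusted p of the joint test 1.65e-06). Its level at 1 h was 26.5 ± 1.71 CPM (SD, n = 3) in NT and 30.7 ± 2.26 in IFT88siRNA. *Adamtsl1* differed at 1 h (log2 −0.87 ± 0.13), 2 h (−0.83 ± 0.13) and 4 h (−0.90 ± 0.15), with a joint adjusted p of 1.38e-06, and its level at 1 h was 50 ± 2.78 CPM in NT and 52.2 ± 2.85 in IFT88siRNA. In both genes the levels reached at 1 h lay close together while the 0 h levels lay apart. *Adamts1* differed at 4 h (log2 −0.73 ± 0.09) and 8 h (−0.63 ± 0.09), with a joint adjusted p of 2.94e-05. Here the level at 1 h was 612 ± 23 CPM in NT and 608 ± 21.2 in IFT88siRNA, and the levels at 4 and 8 h were lower in IFT88siRNA. *Adamts4* had values from −0.49 to −0.15 and *Adamts5* from −0.48 to −0.33, none of them past the fold threshold. For *Adamts4* the difference in response was −0.49 ± 0.12 at 2 h (adjusted p = 0.0385) and −0.33 ± 0.12 at its 4 h peak (adjusted p = 0.188), with a joint adjusted p of 0.0914. For *Adamts5* it was −0.48 ± 0.11 at 4 h (adjusted p = 0.0216) and −0.43 ± 0.11 at 8 h (adjusted p = 0.0425), with a joint adjusted p of 0.0402.

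**Figure D4:**
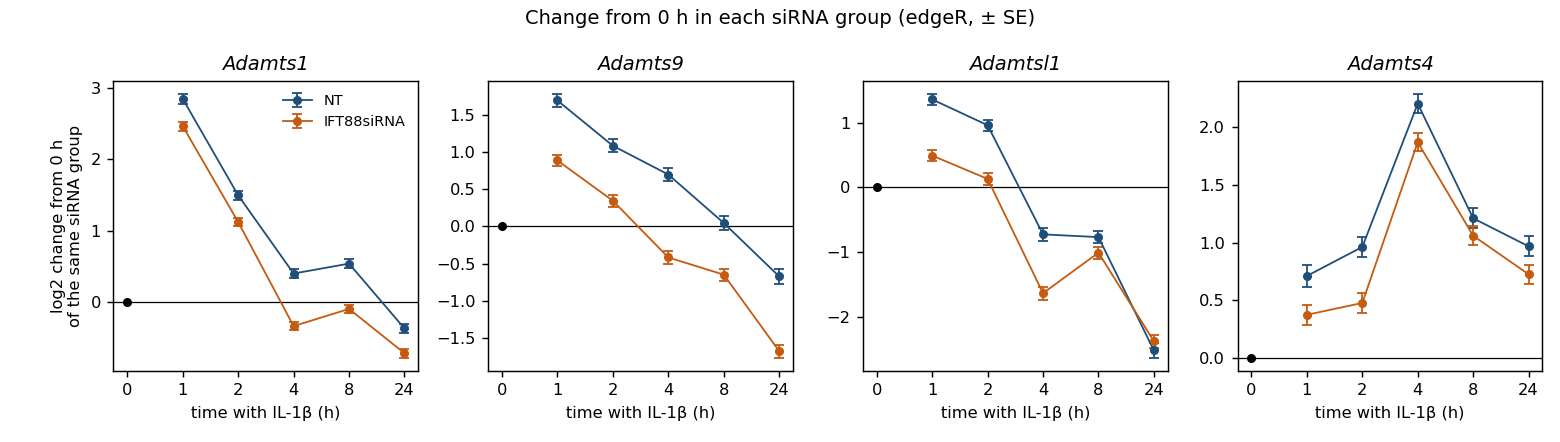
Log2 change from 0 h of the same siRNA group (edgeR, bars are SE) against time with IL-1β for *Adamts1*, *Adamts9*, *Adamtsl1* and *Adamts4*, in NT (blue) and IFT88siRNA (orange), with the 0 h reference in black. The orange line lies below the blue one at every time point for *Adamts1*, *Adamts9* and *Adamts4*, and at 1 to 8 h for *Adamtsl1*.

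Other genes of the same system were taken from lists of substrates, inhibitors, convertases, clearance and cofactor genes and the other ADAMTS family genes. Their counts over time in NT stand against 50.0% of all tested genes changed, and those for the siRNA over all time points against 5.19%. Where only an adjusted p under 0.05 is counted, the share for the siRNA over all time points was 31.8%. Of the inhibitors, 2 of 3 tested rose over time in NT and none fell. *Timp3*, the main inhibitor of aggrecanases, was at 1040 TPM on average and rose 3.10-fold at 2 h (log2 1.63, adjusted p = 3.37e-19), after a log2 rise of 1.01 at 1 h. *Timp1* rose at 2 h (log2 1.21) and by log2 2.69 at 8 h. *Timp2* had values from −0.23 to 0.34. The peak of *Timp3* at 2 h thus fell between those of *Adamts1* at 1 h and *Adamts4* at 4 h. No inhibitor was called altered by the siRNA over all time points, where 3 of 3 had an adjusted p under 0.05 but no fold change past the threshold. The largest log2 difference of *Timp1* was −0.43 at 24 h (adjusted p = 0.00014) and of *Timp3* 0.24 at 24 h (adjusted p = 0.0111).

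Of 3 tested convertases, 1 rose and 1 fell over time in NT. *Pcsk7* rose at 2 h (log2 0.69), *Pcsk6* fell at 4, 8 and 24 h (log2 −0.91, −1.15 and −1.08), and *Furin*, the convertase best known for activating ADAMTS proteases, had a highest log2 value of 0.55 at 2 h. None of the 3 was called altered by the siRNA over all time points, where again 3 of 3 had an adjusted p under 0.05 and stayed inside the fold threshold. Of the 5 clearance and cofactor genes, only *Sdc4*, a heparan sulphate proteoglycan of the cell surface, was called over time. *Sdc4* was up at all 5 time points, by log2 2.26 at 1 h and 2.62 at 2 h. The endocytic receptor gene *Lrp1* had log2 values from 0.07 to 0.44 and *Fn1* from −0.21 to 0.58. Neither these nor *Sdc1* or *Mmp17* was called altered by the siRNA. Of the 5 genes, 3 had an unadjusted and 2 an adjusted p under 0.05, and the share of all tested genes was not computed for the unadjusted cutoff.

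Among the substrates, 3 of 6 tested rose and 2 fell over time in NT, each counted by the direction of its largest change. *Fmod*, counted as fallen, was called up at 1, 2 and 4 h and down at 24 h. *Dcn*, the gene of decorin, rose at every time point and reached a log2 change of 5.65 at 24 h, from 10 ± 0.601 CPM (SD, n = 3) at 0 h to 504 ± 28.9. *Vcan*, the gene of versican, rose from 4 h (log2 1.43). *Comp* was called up at 1 h (log2 1.23) and also at 2, 4 and 8 h, and down at 24 h (−0.92). *Bgn* was not called. The fall of *Acan* at 24 h (log2 −1.77, adjusted p = 0.0038) was one from 0.383 ± 0.0354 to 0.106 ± 0.0547 CPM, at a level of a few counts per library. Over all time points the siRNA altered 5 of 7 tested substrates, *Comp* and *Fmod* upwards and *Acan*, *Ncan* and *Dcn* downwards at the time of the largest difference (*Fmod* and *Ncan* were named after their values were seen). *Ncan*, like *Acan*, was near the floor, with 140 counts in all 36 libraries against 170 for *Acan*. Neither passed the low-count filter in the comparisons of single time points, where 5 substrates were tested each time. *Acan* passed it in the NT time course but not in that of IFT88siRNA, and *Ncan* only with all 36 libraries. The 5 of 7 thus includes genes that no comparison of 3 libraries against 3 could test. *Comp* was higher in IFT88siRNA at 0 h (log2 0.60, adjusted p = 6.75e-06) and 24 h (0.87), and *Fmod* at 0 h (0.76) and 24 h (0.76). *Dcn* had a log2 difference of 0.50 at 0 h, under the fold threshold, and was lower in IFT88siRNA at 24 h (−0.68, adjusted p = 1.67e-06). The response to IL-1β differed in 2 of 7 tested substrates, *Dcn* and *Fmod*, against 1.20% of all tested genes. The change was less upwards, or more downwards, in IFT88siRNA, at 1, 2 and 4 h for *Fmod* and at 8 and 24 h for *Dcn*. These values, too, contain the 0 h libraries.

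The other ADAMTS family genes held 16 names, of which 7 were tested in NT. Over time 3 rose and 3 fell. *Adamts6* rose at 4 h (log2 1.39) and *Adamtsl3* rose at 1 h (1.10) and fell at 24 h (−0.90), while *Adamts10* (−0.85) and *Adamtsl5* (−0.76) fell at 24 h. Named after their values were seen, *Adamts2* rose from 2 h and *Adamts14* fell at 24 h (log2 −2.76). Only *Adamts14* was altered by the siRNA, with a log2 difference of 1.19 at 24 h (adjusted p = 0.0369). Its level was low, at 0.793 TPM on average (0.0811 to 1.18) and at most 90 counts in any library. None of these 7 had a different response to IL-1β by both thresholds (1.20% of all tested genes). An unadjusted p under 0.05 was found for 4 of 7, a cutoff at which the share of all tested genes was not computed. An adjusted p under 0.05 was found for 1 of 7, against 5.53% of all tested genes. *Adamtsl3* came nearest among the abundant ones, with log2 0.42 at 0 h between the siRNA groups and a difference in response of −0.48 at 1 h, an early-peaking ADAMTS-like gene as *Adamtsl1* is.

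The genes whose log2 CPM followed *Adamts1*, *Adamts4*, *Adamts5* and *Adamts9* most closely over the 12 condition means were taken from 2140 candidates by Pearson r, which is a description over conditions of 1 cell line. For *Adamts1* they were *Fosb* (r = 0.967), *Hspa1a* (0.958) and *Egr2* (0.956). *Fosb* and *Egr2* are known as immediate early transcription factor genes and *Hspa1a* as a heat shock gene. For *Adamts4* they were *Slfn2* (0.979), *Gbp5* (0.978) and *Stat5a* (0.973), for *Adamts5* *Kitl* (0.968), *Stc1* (0.956) and 6430548M08Rik (0.944), and for *Adamts9* *Bdh2* (0.955), *L1cam* (0.952) and *Pde3a* (0.95). Among the 8 genes themselves the closest pairs were *Adamts9* with *Adamtsl1* (r = 0.909) and *Adamts1* with *Adamts9* (0.886). The chromosomal neighbours *Adamts1* and *Adamts5* had an r of 0.788.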

How the data were processed

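Poly(A) RNA of 36 libraries was sequenced as paired ends. Per the submitters' processing notes and the methods, the authors aligned reads to GRCm38 with HISAT2 2.1.0 and deposited whole-number counts per gene from featureCounts (Subread 1.6.3), without normalization and, by its defaults, without regard to strand. The authors also deposited TPM per gene from Salmon 0.9.1.

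Groups came from the labels. Tests used edgeR 4.0.16 under R 4.3.3 (TMM, filterByExpr, quasi-likelihood F-tests, two-sided, Benjamini-Hochberg adjustment over all genes tested). Each time point was fitted with its 6 libraries, changes from 0 h with the 18 libraries of 1 siRNA group, and joint and response tests with all 36. A joint test required the fold threshold at 1 or more time points, and its log2 value is the largest. SE values were taken as |log2 change|/√F. The scripts were tested on simulated data. DESeq2 1.42.0, limma 3.58.1 on log2(TPM + 1), other scalings, filters and left-out libraries were tried as alternatives. Fold changes in TPM are on the log2(TPM + pseudocount) scale, which understates changes of low genes. Levels are CPM with TMM scaling. Depth was from 19337022 to 38304127 counts per library, and limits and floors cover counting error only.

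The 9 genes and all lists were chosen with earlier results of these data known. Named are the 9 genes, *Ift88*, up to 4 genes of highest mean TPM of each list plus *Acan* and *Timp3*, and the 3 genes most alike over condition means (mean count of at least 50, s.d. of at least 0.5). Same-numbered libraries of the siRNA groups did not deviate together (correlation over 0.1 in 2 of 18 pairs), so numbers were not taken as pairs. Figures were drawn with matplotlib in Python. A neighbouring gene is not reported here.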

Additional observations from a re-analysis of the deposited data

Results flagged for a closer look

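The response to IL-1β differed between the siRNA groups, by the test of the difference itself (edgeR, adjusted over all genes), in 3 genes. The call for *Adamtsl1* was lost with limma on TPM and that for *Adamts1* without replicate 1, while *Adamts9* was called under all alternatives run. *Adamts9* had the largest difference at 4 h (log2 −1.11, joint adjusted p = 1.65e-06, adjusted p at 4 h = 8.7e-07). It also differed at 1 h (−0.81, adjusted p = 4.59e-05), 2 h (−0.74, adjusted p = 0.000309), 8 h (−0.69, adjusted p = 0.00155) and 24 h (−1.0, adjusted p = 1.61e-05). *Adamtsl1* had its largest difference at 4 h (−0.90, joint adjusted p = 1.38e-06, adjusted p at 4 h = 0.000657), after 1 h (−0.87, adjusted p = 7.45e-05) and 2 h (−0.83, adjusted p = 0.000249). *Adamts1* had its largest difference at 4 h (−0.73, joint adjusted p = 2.94e-05, adjusted p at 4 h = 1.62e-05) and differed at 8 h (−0.63, adjusted p = 7.92e-05). All these values contain the 3 NT and 3 IFT88siRNA libraries at 0 h, where the log2 difference between the groups was 1.01 for *Adamts9*, 0.93 for *Adamtsl1* and 0.37 for *Adamts1*.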

How the results depend on the processing

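Without a fold threshold the genes with an adjusted p under 0.05 between the siRNA groups numbered 6 at 0 h (19.5% of all tested genes), 3 at 1 h (19%), 1 at 2 h (2.76%), 1 at 4 h (3.85%), 2 at 8 h (4.25%), 2 at 24 h (8.66%) and 8 over all time points (31.8%), and in NT 8 at 4 h (60.9%), 7 at 8 h (52.4%) and 5 at 24 h (44.9%). With limma on TPM no gene was called between the siRNA groups at 8 h or 24 h (0 under all 3 TPM settings) or, unfiltered, at 0 h (0), and 3 were called at 2 h in NT with a pseudocount of 1, filtered (3) or not (3). Leaving out 1 library gave 0 to 1 calls between the siRNA groups at 8 h. The causes were not tested. With the replicate number as a block every count stayed within 1.5 times of its value, for example 2 at 0 h between the siRNA groups, and the numbers did not pair the libraries (correlations from −0.133 to 0.223). Of 1158 alternative values for single genes, 1120 kept their side of the thresholds (54 of them, not called, with another sign), 32 lost a call, 6 gained one and 0 reversed a call. The difference in response was called for 2 genes in TPM (*Adamtsl1* lost) and for 2 without replicate 1 (*Adamts1* lost). Upper-quartile scaling moved all genes by −0.108 at 2 h and −0.121 at 4 h in NT (log2). Depth limits *Adamts15*, *Acan* and *Ncan*, at a few counts per library or fewer.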
